A study of Homo sapiens with 9 samples.

Results

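The data compared here are the gene expression profiles of BL2 cells stimulated with lipopolysaccharide (LPS) for 6 hrs and of untreated BL2 control cells. The arrays were chosen by their treatment labels alone, and they number 6 of the 9 arrays analysed: 3 of LPS treated cells and 3 of control cells, 1 of each from each of 3 batches. All groups are the same established line, BL2, grown from a human Burkitt lymphoma, so a single transformed line stands in for germinal centre B cells. LPS was given at 1 μM, and the remaining 3 arrays come from cells given CD40L, a signal that helper T cells give to B cells, for 6 hrs in the same batches. The study describes its arrays as coming from independent biological experiments, and the sample names number the batches. The p-values therefore rest on how far differences between treatments varied over 3 experiments on 1 line. This spread was estimated from all 9 arrays and partly from the other probe sets.

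Gram-negative bacteria carry LPS in their outer membrane. Cells that respond to it bind it through CD14 and the complex of TLR4 and MD-2 (gene LY96), and pass the signal on through the adaptors MYD88 and TRIF (gene TICAM1). The first adaptor is known for activating the NF-κB and MAP kinase pathways, and the second also for inducing interferon genes and the genes that interferon stimulates. Human B cells are commonly described as poor responders to LPS, since many of them carry little TLR4.

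Levels are given on the generalised log2 scale of the deposited values, on which a difference of 1 is close to a 2-fold change for bright probe sets and understates the change of dim ones. Over all probe sets the median level was 6.45, and array medians ran from 6.42 to 6.47 in the 9 arrays. Differences are log2 fold changes, LPS minus control, from limma with the batch as a term, each with its standard error (SE). Their adjusted p-values were corrected after Benjamini and Hochberg over 54613 probe sets, and genes at an adjusted p of at most 0.05 are called higher or lower. Single genes are given with limma's adjusted p. An exact permutation test of 3 arrays against 3 that ignores the batches has 0.1 as its lowest p. One that keeps the pairing by batch cannot reach even that. The precision of each value is limited by this number of arrays.

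The cells carried the markers of B cells. The 5 measured of 6 defining B cell markers had mean levels from 8.83 to 13, MS4A1 (CD20) being the highest, whereas 8 markers of monocytes and macrophages lay between 5.88 and 6.67 and 6 markers of T and NK cells between 6.17 and 6.51. None of these markers of other cell types, nor any of 6 fibroblast and endothelial markers, was called after LPS by its brightest probe set. The fibroblast and endothelial markers lay between 6.12 and 7.94, with COL1A1 the highest. Of the B cell markers 1, CD79A, was lower by its brightest probe set. A dimmer probe set of CD22 was also lower, but its call held in only 2 of 9 fits that left out a batch or an array. As a sign of RNA quality, the difference between the 3′ and 5′ control probe sets of ACTB was 0.365, 0.468 and 0.482 in the control arrays and 0.406, 0.399 and 0.441 in the LPS arrays, so that the groups overlapped. In such bulk RNA a fall of a transcript in every cell and a loss of the cells that carry it cannot be told apart.

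LPS changed many genes by a small amount. Of the 54613 probe sets, 637 (1.17%) were higher and 487 (0.892%) lower after LPS, naming 456 and 346 genes. All 1124 called probe sets had the same direction in all 3 batches, which passing a test with the batch as a term largely requires. For 991 of them the control and LPS arrays did not overlap, against 13.4% of all probe sets. Only 1 probe set rose and 1 fell at least 2-fold, those of IFIT3 and ID1, and 35 rose and 36 fell at least 1.5-fold. The smallest called change was 0.218, and the median size of the called changes was 0.299 in batch 1, 0.379 in batch 2 and 0.317 in batch 3. When each of 19775 genes was represented by its brightest probe set, 320 genes (1.62%) were higher and 293 (1.48%) lower, with a median log2 fold change of 0.0018. These 2 percentages are the background against which the counts of list members are given, and no list was tested as a set. The lists were chosen with earlier results of these data known, and some hold genes with the largest changes, such as RGS18. A share above the background may therefore partly follow from the choice of members, and is given as a description only. The background is not matched to a list for level, and a dim gene is harder to call. Members at or below the median level of all probe sets were 0 of 20 in class I presentation and 18 of 43 among cytokines, chemokines and receptors.

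**Figure D1:**
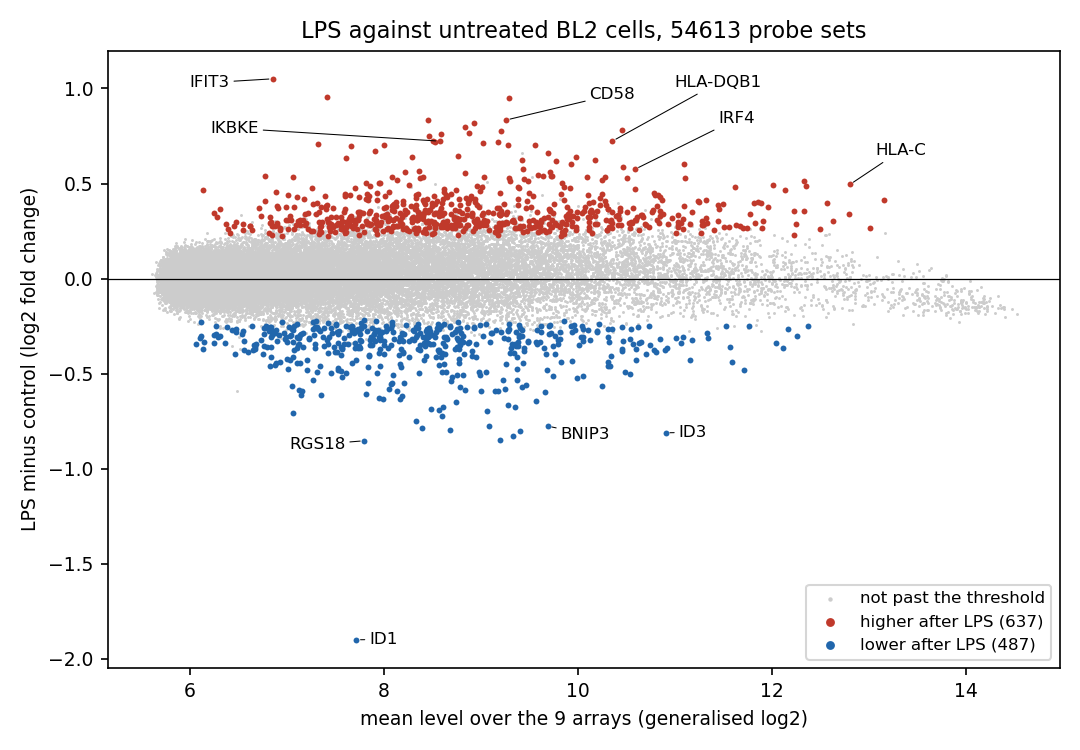
Log2 fold change (LPS minus control, y axis) against the mean level over the 9 arrays (generalised log2, x axis) for 54613 probe sets, with the 637 higher probe sets in red, the 487 lower ones in blue and the others in grey. ID1 lies far below all other probe sets at −1.90, IFIT3 is the highest at 1.05, and most called probe sets lie within 0.5 of zero.

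Few receptors and adaptors of the LPS pathway passed the test. Of 30 measured members 0 rose and 2 (6.67%) fell, and the median log2 fold change was 0.00469. TLR4, the signalling receptor for LPS, had levels of 7.52, 7.22 and 7.32 in the control arrays of batches 1 to 3 and 7.27, 7.31 and 7.18 after LPS, which overlap (log2 fold change −0.10, adjusted p = 0.67). CD14, which hands LPS to the receptor, lay between 6.12 and 6.32 and LY96 between 6.39 and 6.77 in all 6 arrays, near the median of all probe sets. The adaptor MYD88 was bright, at 10.71, 10.45 and 10.49 in control cells and 10.66, 10.56 and 10.45 after LPS (0.01, adjusted p = 0.992), and for TICAM1 the difference was 0.08 (adjusted p = 0.666). The members that fell were TLR1, a receptor for bacterial lipoproteins (−0.42, adjusted p = 0.014), and IRAK3, an inhibitory kinase of the pathway (−0.28, adjusted p = 0.0315). Neither call held without batch 1, batch 3, the control array of batch 1 or any 1 of the LPS arrays. Both were also lost without the batch term. Of 9 settings that left out a batch or an array, IRAK3 was called in 2. Adjusted p-values were up to 0.15 for TLR1 without the LPS array of batch 1 and up to 0.223 for IRAK3 without batch 3.

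Among the kinases and ubiquitin editors between the adaptors and NF-κB, 2 of 21 measured members (9.52%) rose and 0 fell. IKBKE encodes IKKε, a kinase of interferon regulatory factors and of the NF-κB pathway. It had levels of 8.29, 8.06 and 7.94 in control cells and 8.81, 8.87 and 8.78 after LPS. The LPS arrays were all above the control arrays and closer to each other than those were (0.72, SE 0.071, adjusted p = 8.33e-05), and the second probe set of IKBKE rose by 0.64 (adjusted p = 5.33e-05). TNFAIP3, which encodes the ubiquitin editor A20 that dampens NF-κB, went from 8.32, 8.14 and 8.09 to 8.58, 8.62 and 8.53 (0.39, adjusted p = 0.00192). Its groups did not overlap, but its adjusted p was 0.073 without batch 3.

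NF-κB proteins are dimers that are held in the cytoplasm by IκB inhibitors, several of which are induced by NF-κB and so form a feedback. Of the 10 measured subunits and inhibitors, 4 (40%) rose and 0 fell, with a median log2 fold change of 0.208. NFKBIE, the inhibitor IκBε, rose most, from 7.94, 7.76 and 7.75 to 8.49, 8.34 and 8.10 without overlap (0.49, SE 0.06, adjusted p = 0.000336). NFKBIZ, a nuclear IκB protein that takes part in gene induction, had 10.94, 10.44 and 10.65 in control cells and 11.12, 11.06 and 11.17 after LPS (0.44, SE 0.084, adjusted p = 0.0108). The control array of batch 1 was near the LPS arrays, and the rise was larger in the other batches.

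The subunit RELB, a partner in the non-canonical pathway, rose by 0.43 (adjusted p = 0.00654), although its control array of batch 1 at 8.88 was above its LPS array of batch 3 at 8.72. The inhibitor NFKBIB rose by 0.28 (adjusted p = 0.0177). The remaining members did not pass the test. Log2 fold changes were 0.18 for NFKB1 (adjusted p = 0.506), 0.24 for NFKB2 (adjusted p = 0.0701), 0.07 for RELA (adjusted p = 0.849), −0.13 for REL (adjusted p = 0.44) and 0.16 for NFKBIA (adjusted p = 0.517). Leaving out single batches or arrays gave 2 to 4 called members, with 2 without batch 1, without batch 3 and without the LPS array of batch 2 or 3. NFKBIE was called under every one of them, and without the batch term 0 members were called.

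Of 37 measured NF-κB target genes, 6 (16.2%) rose and 0 fell, with a median of 0.0625. The largest rise was that of CD58, the adhesion ligand of CD2 on T cells. Its levels were 8.63, 8.31 and 8.39 in control cells and 9.14, 9.40 and 9.28 after LPS, with every LPS array above every control array (0.83, SE 0.089, adjusted p = 0.000145). Of the 5 probe sets of CD58, 3 were called, and the further called ones gave similar differences, 0.75 and 0.76. Those further ones lost their calls without batch 3 (adjusted p = 0.0684 and 0.051), while the first kept its call (adjusted p = 0.032). ICAM1, the ligand of the integrin LFA-1, rose in each batch, from 7.83, 7.48 and 7.42 to 8.16, 8.12 and 7.81 (0.45, SE 0.064, adjusted p = 0.00112). The groups of ICAM1 overlapped because its level was highest in batch 1 in both. BCL2A1, a survival protein of the BCL2 family, rose by 0.39 (adjusted p = 0.0071), GADD45B, a stress sensor, by 0.30 (adjusted p = 0.0349) and the death receptor FAS by 0.26 (adjusted p = 0.0474). IRF4 is described with the transcription factors. With single batches or arrays left out 3 to 5 members were called, 3 of them without batch 3 and without its LPS array. FAS, with 1 of its 5 probe sets called, was lost in all but 1 of these settings.

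The secreted mediators that LPS induces in monocytes lay near or below the median of all probe sets. TNF lay between 6.39 and 6.51, IL6 between 6.10 and 6.26, IL10 between 6.27 and 6.41 and CCL4 between 6.31 and 6.45 over the 6 arrays, and none passed the test. Of 43 measured cytokines, chemokines and their receptors, 1 rose and 1 fell (2.33% each). IL6ST, the shared signalling chain gp130 of the IL-6 receptor family, went from 7.33, 7.55 and 7.57 to 7.98, 7.92 and 7.87 with no overlap (0.44, adjusted p = 0.00333). IL7R, the receptor of the B cell precursor cytokine IL-7, fell by 0.35 (adjusted p = 0.00546), and its second probe set by 0.52 (adjusted p = 0.000704). The call of IL6ST was lost without batch 1 (adjusted p = 0.0996), and that of the brighter probe set of IL7R without batch 1 or batch 3. A dim level can hide a change, and 18 of the 43 genes had a mean at or below the median of all probe sets.

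**Figure D2:**
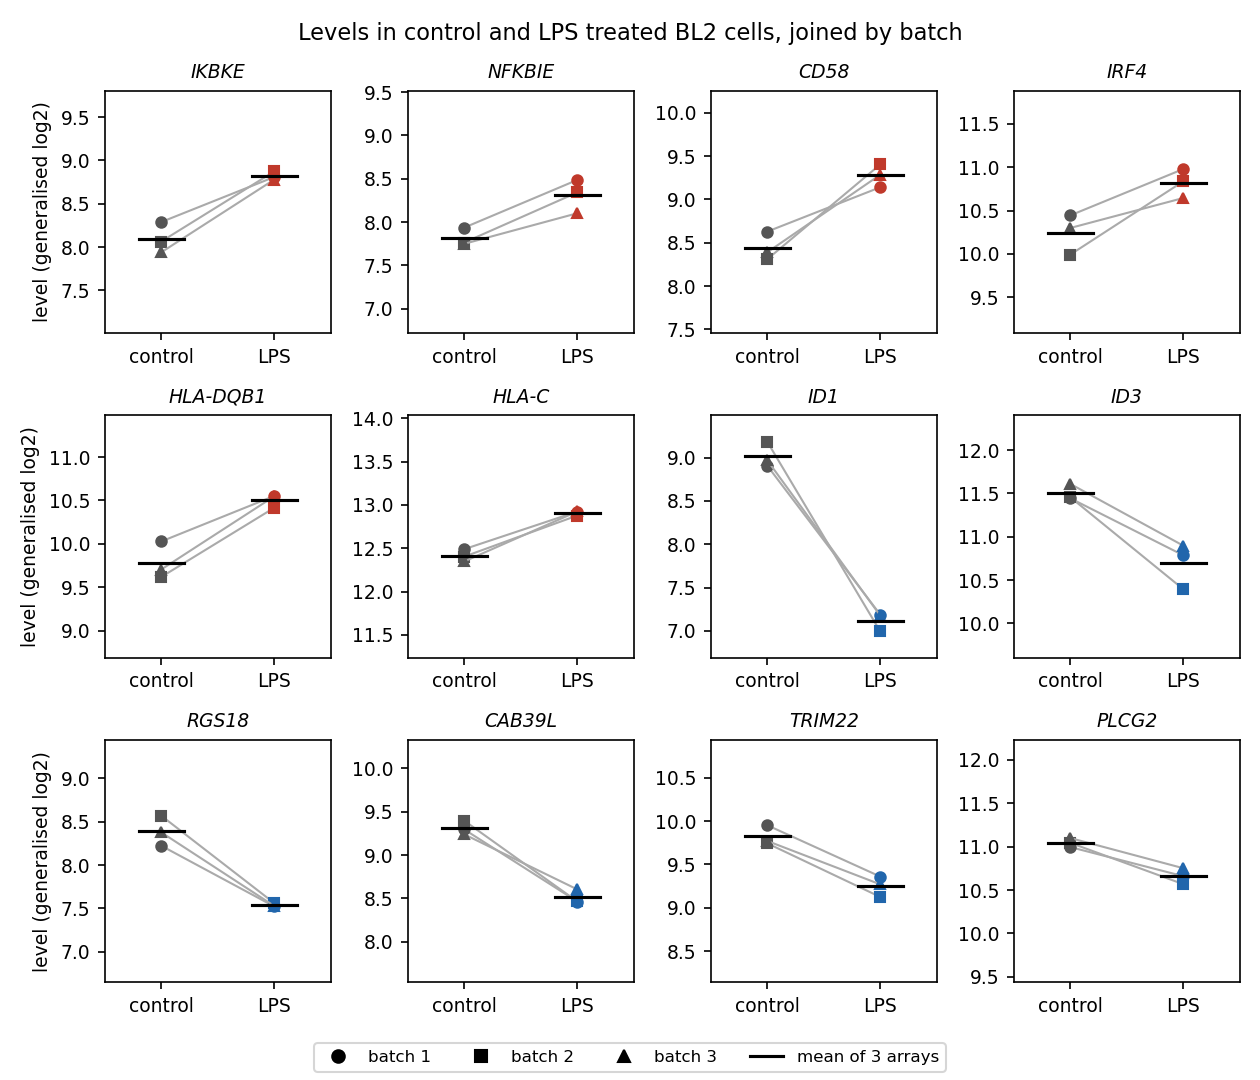
Levels (generalised log2, y axis, all panels to the same scale) of 12 genes in the 3 control and 3 LPS arrays, with lines joining the arrays of a batch and black bars marking the means. In every panel all 3 batches move the same way, with ID1 showing the largest difference (−1.90) and the class II gene HLA-DQB1 a rise of 0.72.

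The interferon-stimulated genes split in both directions. Of 56 measured members 5 rose and 5 fell (8.93% each), and the median was −0.00633. IFIT3, which encodes an antiviral RNA-binding scaffold, showed the largest rise of all named genes. It was at 6.53, 6.41 and 6.42 in control cells and at 7.50, 7.45 and 7.56 after LPS, almost a whole log2 unit apart with no overlap (1.05, SE 0.07, adjusted p = 1.95e-06), and its second probe set rose by 0.54 (adjusted p = 0.000867). IFIT1, a sensor of viral RNA ends from the same gene cluster, went from 5.88, 6.07 and 5.98, near the low end of the scale, to 6.39, 6.36 and 6.58 (0.47, adjusted p = 0.000857). For IFIT2, the third member of this family, the dimmer probe set rose by 0.34 (adjusted p = 0.0124), while the brighter one had 0.09 (adjusted p = 0.707).

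The peptide transporter TAP1 rose by 0.36 (adjusted p = 0.00397), IFIH1, the cytoplasmic RNA sensor MDA5, by 0.33 (adjusted p = 0.00405) and IFI44 by 0.33 (adjusted p = 0.00654). Other well known members of this set did not pass the test, among them MX1 (0.19, adjusted p = 0.098), ISG15 (−0.09, adjusted p = 0.697) and RSAD2 (−0.05, adjusted p = 0.875). The members that fell were TRIM22, an antiviral ubiquitin ligase, the membrane protein IFITM1, the RNA-activated synthetases OAS1 and OAS2, and the nuclear body protein SP110. TRIM22 was at 9.95, 9.74 and 9.77 in control cells and at 9.36, 9.12 and 9.27 after LPS without overlap (−0.57, SE 0.07, adjusted p = 0.000363). IFITM1 fell by 0.37 (adjusted p = 0.00837), OAS2 by 0.36 (adjusted p = 0.00335), OAS1 by 0.32 (adjusted p = 0.00546) and SP110 by 0.24 (adjusted p = 0.0312). Leaving out single batches or arrays gave 1 (without batch 3) to 6 (without batch 2) higher members and 1 (without batch 1) to 5 lower ones. IFIT3 and TRIM22 were called under every one of these settings.

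Genes that interferon stimulates are bound by IRF and STAT complexes at elements built of repeated GAAA. Upstream sequences of 4 genes that rose and of IFITM1, which fell, are therefore shown, from RefSeq on GRCh38.p14 and on the strand of the gene, with each match to GAAA, any 2 bases and GAAA again, on either strand, in capitals. The windows are parts of the 250 bases before an annotated start.
IFIT1, chr10:89392477-89392559, plus strand: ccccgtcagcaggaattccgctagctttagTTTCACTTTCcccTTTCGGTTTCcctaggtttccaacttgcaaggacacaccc
IFIT3, second start, chr10:89332405-89332517, plus strand: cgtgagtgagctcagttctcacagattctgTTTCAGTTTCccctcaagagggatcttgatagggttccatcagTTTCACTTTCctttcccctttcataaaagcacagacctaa
IFI44, first start, chr1:78649741-78649788, plus strand: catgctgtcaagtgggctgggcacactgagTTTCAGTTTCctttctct
TAP1, first start, chr6:32853793-32853868, minus strand: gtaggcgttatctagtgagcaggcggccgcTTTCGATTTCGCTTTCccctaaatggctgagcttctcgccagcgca
IFITM1, chr11:313970-314039, plus strand: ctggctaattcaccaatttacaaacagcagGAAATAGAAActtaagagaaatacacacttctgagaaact

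The 5 list members that rose, IFIT1, IFIT3, IFI44, IFIH1 and TAP1, all had such a match before at least 1 annotated start. IFIT1, each start of IFIT3 and the first start of TAP1 had 2 matches, and IFIH1 had 3. Of the 5 genes that fell, 3 were in the table of upstream sequences, of which IFITM1 had a match while OAS1 and SP110 had none. Counted by upstream sequence, 7 of the 8 of the genes that rose (87.5%) and 1 of the 4 of the genes that fell (25%) held a match, beside 3.02% of the 35116 in the table. Sequences of 1 gene can overlap, and those of IFI44 hold the same match, so the sequences are not independent. A match of these letters is a description of the sequence and no measure of binding. The sequences come from called members of a list of interferon-stimulated genes, and members not called were not counted. These shares therefore cannot tell whether a match goes with the response to LPS.

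The ID genes fell together, and ID1 fell more than any other gene on the arrays. ID proteins lack a DNA-binding region and hold E proteins, the activators of B cell genes, in inactive pairs. Of the 7 measured ID and E protein genes, all 4 ID genes fell (57.1%) and none rose. ID1 was at 8.91, 9.18 and 8.97 in control cells and at 7.19, 6.99 and 7.18 after LPS, a 3.73-fold fall with a wide gap between the groups (−1.90, SE 0.077, adjusted p = 3.67e-09). ID3, which is often mutated in Burkitt lymphoma, was much brighter and fell from 11.45, 11.46 and 11.61 to 10.79, 10.40 and 10.90 (−0.81, SE 0.076, adjusted p = 5.76e-05).

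ID4 went from 9.81, 9.68 and 9.37 to 8.96, 8.82 and 8.75, again without overlap (−0.78, SE 0.069, adjusted p = 4.84e-05), and 4 of its 5 probe sets were lower. ID2 fell least, from 10.28, 10.32 and 10.18 to 9.87, 10.01 and 9.60 (−0.43, SE 0.082, adjusted p = 0.0104). Without batch 3 the adjusted p of ID2 was 0.142, and the other 3 ID genes were called under every setting that left out a batch or an array. The E protein genes did not pass the test, with log2 fold changes of −0.00 for TCF3, −0.01 for TCF12 and −0.12 for TCF4 (adjusted p = 0.998, 0.985 and 0.628) by their brightest probe sets, although 2 of 8 probe sets of TCF4 were lower.

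ID genes are classical targets of BMP signals, which act through SMAD1, SMAD5 and SMAD9. Of 29 measured genes of BMP and TGF-β signalling 3 (10.3%) fell and 0 rose. SMAD1 fell in both called probe sets, by 0.59 each, the brighter going from 9.92, 9.71 and 9.64 to 9.27, 9.26 and 8.95 (SE 0.067, adjusted p = 0.000189). Its groups did not overlap. The ligand BMP7 fell by 0.40 (adjusted p = 0.0166) and SMAD9 by 0.30 (adjusted p = 0.0148). The inhibitory SMAD6 and SMAD7 had −0.14 (adjusted p = 0.348) and −0.01 (adjusted p = 0.985). Without batch 1 the adjusted p of BMP7 was 0.298, and without single batches or arrays 1 to 3 members were called.

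Genes of antigen presentation rose in both MHC classes. Several HLA probe sets end in a suffix that marks probes shared with related HLA transcripts, so the HLA genes are not fully separate measurements. Of 20 measured class I genes, which present peptides from inside the cell to cytotoxic T cells, 8 (40%) rose and 0 fell, with a median of 0.169. HLA-C was at 12.49, 12.40 and 12.35 in control cells and at 12.92, 12.88 and 12.92 after LPS (0.49, SE 0.056, adjusted p = 0.000189), with narrow groups that did not overlap. HLA-E, the ligand of inhibitory NK receptors, went from 9.47, 9.14 and 9.19 to 9.87, 9.78 and 9.77 (0.54, SE 0.065, adjusted p = 0.000341).

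HLA-B rose by 0.41 (adjusted p = 0.000928), HLA-G by 0.39 (adjusted p = 0.00321) and HLA-F by 0.35 (adjusted p = 0.00291). Of the peptide-loading genes, TAPBP rose by 0.40 (adjusted p = 0.0124), TAP1 by 0.36 and TAPBPL by 0.24 (adjusted p = 0.0353). The invariant light chain B2M was bright and had 0.02 (adjusted p = 0.974), and the immunoproteasome genes PSMB8 and PSMB9 had −0.14 (adjusted p = 0.387) and −0.20 (adjusted p = 0.173). Without batch 3 the number of called members fell from 8 to 2, and it was 9 without the control array of batch 3. HLA-C and HLA-E were called under all settings that left out a batch or an array.

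Of 26 measured class II genes, which present captured antigen to helper T cells, 7 (26.9%) rose and 1 (3.85%) fell, with a median of 0.107. HLA-DQB1 went from 10.03, 9.62 and 9.70 to 10.55, 10.42 and 10.55 (0.72, SE 0.074, adjusted p = 0.000124), and 6 of its 7 probe sets were higher. HLA-DQA1 went from 10.10, 9.79 and 9.92 to 10.59, 10.40 and 10.59 (0.59, SE 0.061, adjusted p = 0.000124), and all 3 of its probe sets were higher. In both genes the LPS arrays lay above all control arrays.

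The peptide-exchange genes behaved unequally: HLA-DOA rose by 0.53 (adjusted p = 0.00275) and HLA-DMB by 0.52 (adjusted p = 0.00149), while HLA-DOB, the partner chain of HLA-DOA, fell by 0.37 (adjusted p = 0.00442). CIITA, the master activator of class II genes, was dim and went from 6.84, 6.90 and 6.99 to 7.22, 7.40 and 7.31 (0.40, SE 0.059, adjusted p = 0.00157). Of its 3 probe sets 1 was higher. RFX5, which binds class II promoters, rose by 0.39 (adjusted p = 0.00157) and HLA-DRB1 by 0.30 (adjusted p = 0.0167). The bright HLA-DRA (0.24, adjusted p = 0.079) and CD74 (0.02, adjusted p = 0.974) did not pass the test by their brightest probe sets, while the second probe set of HLA-DRA rose by 0.30 (adjusted p = 0.016). For HLA-DPA1 a dimmer probe set had the largest rise, 0.82 (adjusted p = 0.000758), whereas its brightest had 0.23 (adjusted p = 0.0755). Without batch 3 the list had 5 higher members and without batch 2 it had 9.

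**Figure D3:**
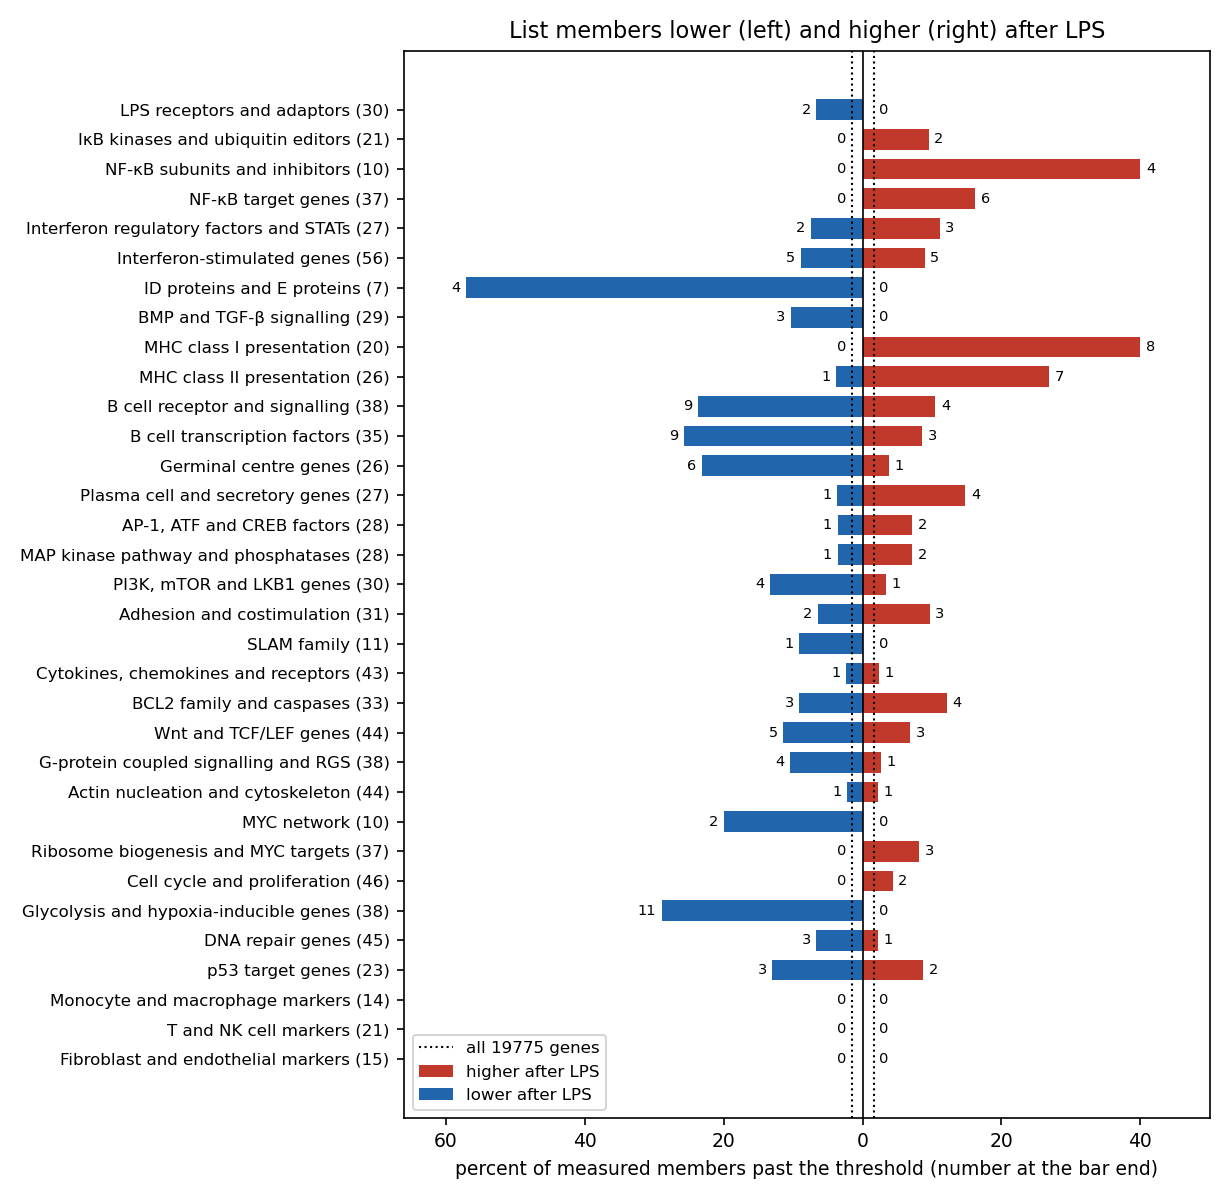
Percent of the measured members of each gene list that were lower (blue, left) and higher (red, right) after LPS, with the number of members at the bar end, the number measured in brackets and the percentage over all 19775 genes as dotted lines. Class I presentation and the NF-κB subunits and inhibitors have 40% of members higher, and the ID and E proteins and the hypoxia-inducible genes have 57.1% and 28.9% lower. The lists were chosen with earlier results of these data known.

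The transcription factors of B cells changed in opposite directions. IRF4, which drives plasma cell differentiation and class switching, went from 10.44, 9.99 and 10.30 to 10.98, 10.84 and 10.64, each LPS array above all control arrays (0.58, SE 0.077, adjusted p = 0.000766), although only 1 of its 3 probe sets was called. BATF, its AP-1 family partner, was tight in control cells at 8.67, 8.69 and 8.72 and rose to 9.18, 9.50 and 9.51 (0.70, SE 0.065, adjusted p = 5.67e-05). IRF8, which is typical of germinal centre B cells, fell from 10.92, 11.11 and 11.11 to 10.64, 10.49 and 10.73 without overlap (−0.43, SE 0.069, adjusted p = 0.00347). The call of IRF8 was lost without batch 3 (adjusted p = 0.073), and IRF4 and BATF were called under all settings that left out a batch or an array.

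Of the 35 measured B cell transcription factors, 3 (8.57%) rose and 9 (25.7%) fell, with a median of −0.00127. Besides ID3 and IRF8, the falls were SATB1, a chromatin organiser (−0.48, adjusted p = 0.00137), LEF1 (−0.35, adjusted p = 0.00382), the coactivator POU2AF1 (−0.34, adjusted p = 0.0142), EBF1 (−0.34, adjusted p = 0.0307), BCL6 (−0.31, adjusted p = 0.0144), IKZF2 and MEF2C. BCL6, the master repressor of the germinal centre, went from 11.23, 11.21 and 11.38 to 11.05, 10.86 and 10.98. Its groups did not overlap, but its adjusted p was 0.209 without batch 3. With single batches or arrays left out, 2 to 10 of these factors were lower.

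Of 26 measured germinal centre genes 1 (3.85%) rose and 6 (23.1%) fell. RGS18, a regulator of G-protein signals, had 8.22, 8.57 and 8.38 in control cells and 7.52, 7.56 and 7.53 after LPS, with nearly equal LPS arrays far below the control arrays (−0.85, SE 0.069, adjusted p = 1.72e-05). STAP1, an adaptor of B cell receptor signals, fell by 0.56 (adjusted p = 0.000716) and MYBL1, a transcription factor of proliferating germinal centre cells, by 0.56 (adjusted p = 0.00324). MME, the surface enzyme CD10, fell by 0.32 (adjusted p = 0.0114) and GCSAM, a regulator of motility, by 0.30 (adjusted p = 0.0086). KLHL6 rose by 0.34 (adjusted p = 0.00786). RGS18 and STAP1 were called under every setting that left out a batch or an array, while MYBL1 was lost without batch 3 (adjusted p = 0.117).

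Of 38 measured genes of the B cell receptor and its signalling 4 (10.5%) rose and 9 (23.7%) fell. PLCG2, the phospholipase that releases calcium after receptor engagement, went from 11.00, 11.04 and 11.10 to 10.66, 10.57 and 10.75 (−0.39, SE 0.057, adjusted p = 0.00164). CD79A, a signalling chain of the receptor, went from 10.70, 10.70 and 10.79 to 10.33, 10.28 and 10.43 (−0.38, SE 0.055, adjusted p = 0.00136). In both genes the groups were well apart. The tetraspanin CD37 fell by 0.37 (adjusted p = 0.00211), the kinases BLK by 0.36 (adjusted p = 0.00802) and BTK by 0.34 (adjusted p = 0.00745), and CD38 by 0.33 (adjusted p = 0.0106).

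The rises were the surrogate light chain IGLL1 (0.55, adjusted p = 0.000234), the complement receptor CR2 (0.37, adjusted p = 0.00412), the lipid kinase subunit PIK3CD (0.35, adjusted p = 0.00384) and VAV2 (0.29, adjusted p = 0.0468). Other receptor genes did not pass the test, such as CD79B (−0.18, adjusted p = 0.237). PTPRC, the phosphatase CD45, which is no member of the list, was among the larger falls with −0.67 (adjusted p = 0.000189) by the probe set of largest change. With single batches or arrays left out, 2 to 10 members were lower and 1 to 4 higher, and PLCG2, CD79A and IGLL1 were called throughout.

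Of 27 measured plasma cell and secretory genes, 4 (14.8%) rose and 1 (3.7%) fell. Apart from IRF4 the rises were ELL2, an elongation factor of secretory immunoglobulin transcripts, from 7.42, 7.45 and 7.37 to 7.98, 8.06 and 7.81 (0.54, SE 0.069, adjusted p = 0.00056), and the chaperones of the endoplasmic reticulum HSP90B1 (0.45, adjusted p = 0.00577) and HSPA5 (0.40, adjusted p = 0.00345). A probe set of a further chaperone, CALR, had a rise of 0.70 (adjusted p = 0.0125) with control arrays at 9.76, 8.84 and 8.68 and LPS arrays at 10.09, 10.00 and 9.29, so the groups overlapped, and the brightest probe set of CALR had 0.29 (adjusted p = 0.0877). The plasma cell regulators PRDM1 (0.06, adjusted p = 0.854) and XBP1 (−0.13, adjusted p = 0.411) were dim and did not pass the test. The calls of HSP90B1, HSPA5 and CALR were lost without batch 3, while ELL2 stayed called.

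On the cell surface, 3 of 31 measured adhesion and costimulation genes (9.68%) rose and 2 (6.45%) fell. Next to CD58 and ICAM1, TNFSF4, the ligand OX40L, went from 6.93, 7.03 and 7.01 to 7.31, 7.41 and 7.39 (0.38, SE 0.056, adjusted p = 0.00171). CD86, a ligand of CD28, fell from 8.54, 8.60 and 8.49 to 8.18, 8.08 and 8.19 (−0.39, adjusted p = 0.00183), with groups that did not overlap. PECAM1 fell by 0.48 (adjusted p = 0.000363), with 3 of 5 probe sets lower. Of 11 SLAM family genes, 1 (9.09%), SLAMF6, fell (−0.28, adjusted p = 0.023). Chosen after its values were seen, a dimmer probe set of LY9, the receptor SLAMF3, fell by 0.41 (adjusted p = 0.00117, and 0.056 without batch 3), although its brightest was not called. By the probe set of largest change 1 of the 11 was higher and 2 were lower. TNFSF4 had an adjusted p of 0.0581 without batch 3, and SLAMF6 was lost in most settings that left out an array.

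A group of genes that are induced by hypoxia or serve glycolysis was lower after LPS, by amounts that differed between batches. Of 38 measured members, 11 (28.9%) fell and 0 rose, with a median of −0.0956. BNIP3, a mitochondrial protein of autophagy, was at 9.70, 10.74 and 10.19 in control cells and at 9.35, 9.47 and 9.49 after LPS (−0.78, SE 0.11, adjusted p = 0.00166). The LPS arrays were close to each other, and the control arrays spread over a whole log2 unit. PFKFB4, a regulator of glycolytic flux, showed the same order, with 7.15, 7.92 and 7.52 in control cells and 6.71, 6.95 and 6.80 after LPS (−0.71, SE 0.095, adjusted p = 0.00072). Of the 2 probe sets of PFKFB4, 1 was lower.

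The histone demethylase KDM3A went from 8.71, 9.40 and 8.98 to 8.30, 8.44 and 8.28 without overlap (−0.69, SE 0.08, adjusted p = 0.000234), with 1 of its 2 probe sets lower. The others that fell were the collagen hydroxylase P4HA1 (−0.59), BNIP3L (−0.56), ANKRD37 (−0.55), the MYC antagonist MXI1 (−0.44), PFKFB3 (−0.43), ALDOC (−0.33), PFKM (−0.31) and ENO2 (−0.28), with adjusted p-values of 0.000605 to 0.0399. Outside the list, the lipid droplet protein HILPDA fell by 0.68 (adjusted p = 0.00465), from 9.56, 10.30 and 9.54 to 9.14, 9.10 and 9.12. In the control arrays of BNIP3, PFKFB4, KDM3A, P4HA1, BNIP3L and ANKRD37 the level was highest in batch 2 and lowest in batch 1.

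The bright core enzymes of glycolysis did not pass the test, with LDHA at −0.07 (adjusted p = 0.862), PGK1 at −0.08 (adjusted p = 0.789) and ENO1 at −0.05 (adjusted p = 0.915), and neither did the hypoxia factor HIF1A (−0.02, adjusted p = 0.972). Without batch 3, 2 of the list were called, KDM3A and MXI1, while 12 were without the control array of batch 2 and 3 without the batch term. Against the same control arrays the changes after CD40L were −0.78 for BNIP3, −0.69 for PFKFB4 and −0.68 for KDM3A. What set the level of these genes in the untreated cells of each batch was not tested.

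**Figure D4:**
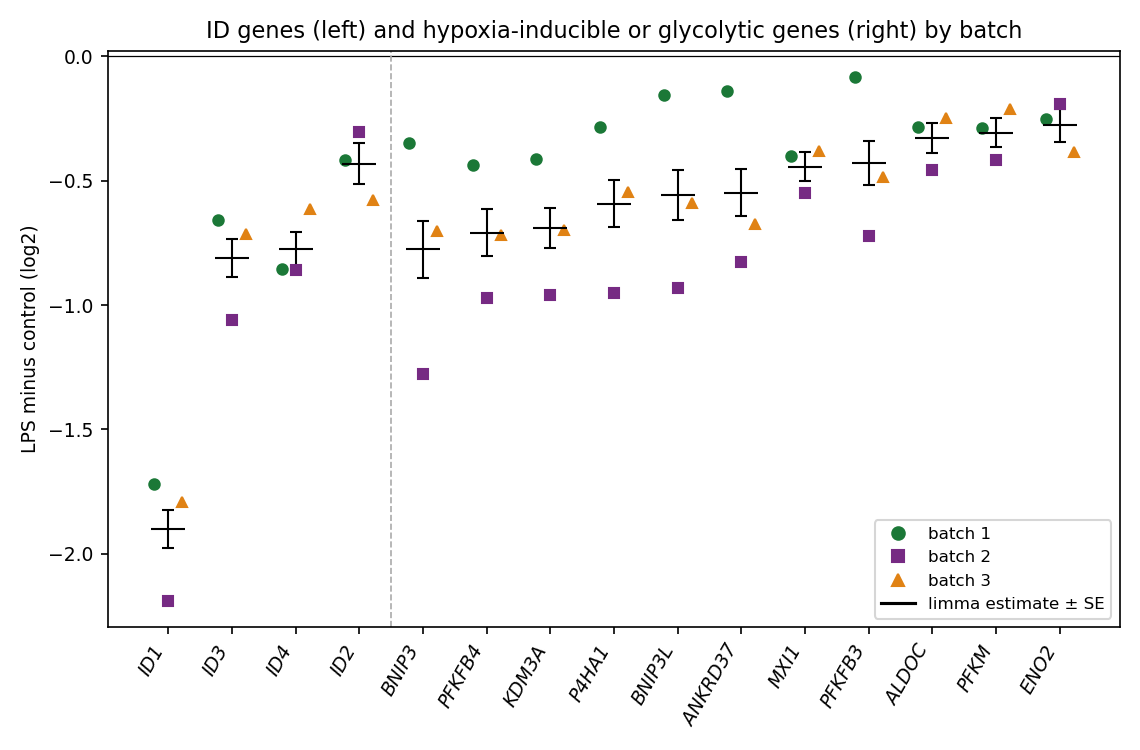
Difference between LPS and control in each batch (coloured symbols) and the limma estimate with its standard error (black) for the 4 ID genes and for the 11 hypoxia-inducible or glycolytic genes that fell, on the log2 scale. Every symbol lies below 0, and from BNIP3 to ANKRD37 the fall was smallest in batch 1 and largest in batch 2.

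Many genes that hypoxia induces carry the core ACGTG, which is also part of the CACGTG that MYC and its partners bind, before their start. The windows of a pair of the genes that fell are shown, with each ACGTG on either strand in capitals, so that CACGTG counts on both.
BNIP3, chr10:131982022-131982087, minus strand: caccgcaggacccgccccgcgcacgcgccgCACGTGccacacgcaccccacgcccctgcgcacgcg
ANKRD37, chr4:185396649-185396732, plus strand: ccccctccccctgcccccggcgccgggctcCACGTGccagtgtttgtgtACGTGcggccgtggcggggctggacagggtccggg

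Of the 11 genes that fell, 10 were in the table, and 8 of them had ACGTG before at least 1 annotated start. Counted by upstream sequence, 8 of their 20 (40%) held it, beside 18.5% of the 35116 in the table. PFKM alone gave 7 of the 20, most of which overlap, so the sequences are not independent. PFKFB4 and KDM3A had none in this window. Members of the hypoxia and glycolysis list that were not called were not counted, so this share cannot tell whether ACGTG goes with a fall after LPS.

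Genes of growth control other than these included several of the larger falls. CAB39L, a scaffold of the kinase LKB1, went from 9.30, 9.40 and 9.24 to 8.46, 8.47 and 8.60, and all 3 of its probe sets were lower (−0.80, SE 0.064, adjusted p = 1.71e-05). DEPTOR, an inhibitor of mTOR, went from 9.86, 9.99 and 9.92 to 9.47, 9.38 and 9.48 (−0.48, SE 0.072, adjusted p = 0.00192), with 1 of its 2 probe sets lower. In both the groups were far apart. DDIT4, a stress-induced inhibitor of mTOR, fell by 0.83 (adjusted p = 0.0178), but its control levels of 8.89, 10.61 and 10.03 had the same order of batches as BNIP3 and overlapped the LPS levels of 8.87, 9.43 and 8.74.

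In all, 4 of 30 measured PI3K, mTOR and LKB1 genes (13.3%) fell and 1 rose (3.33%). Without batch 3 the adjusted p of DDIT4 was 0.332. TXNIP, which restrains glucose uptake, fell from 9.28, 8.87 and 8.48 to 8.01, 8.16 and 8.10 (−0.79, SE 0.11, adjusted p = 0.00153), here with the highest control level in batch 1, and all 3 of its probe sets were lower. CCNG2, a cyclin that opposes proliferation, fell by 0.72 (adjusted p = 0.000189) and 4 of its 5 probe sets were lower. Of 46 measured cell cycle genes, 2 (4.35%) rose, CDC6 (0.24, adjusted p = 0.0383) and MCM7 (0.23, adjusted p = 0.0468), and 0 fell. MYC itself was bright and did not pass the test (−0.06, adjusted p = 0.841), while the MYC antagonists MXI1 and MNT (−0.31, adjusted p = 0.0354) fell. CDC6, MCM7 and MNT lost their calls in most settings that left out an array.

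The remaining genes among the 15 largest rises and the 15 largest falls are given here. LINC00158, a long non-coding RNA, was at 6.47, 6.55 and 6.47 in control cells and at 7.34, 7.45 and 7.56 after LPS, with no overlap (0.95, SE 0.061, adjusted p = 1.74e-06). CREM, a repressor and activator of cAMP-responsive genes, went from 8.60, 8.13 and 8.23 to 9.20, 9.28 and 8.86 (0.80, SE 0.1, adjusted p = 0.000427). The rise of CREM differed between its 6 probe sets, of which 3 were called and the dimmest had −0.00.

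MAN1A1, a Golgi mannosidase, rose by 0.78 (adjusted p = 0.000281), RILPL2 by 0.78 (adjusted p = 2.95e-05), UMODL1 by 0.72 (adjusted p = 0.000145) and OLFML2A by 0.71 (adjusted p = 0.000122). For ACTR3, a subunit of the actin-nucleating ARP2/3 complex, the probe sets disagreed, since one rose by 0.83 (adjusted p = 8.33e-05) while the brightest had 0.01 (adjusted p = 0.98). The DNA glycosylase NEIL2 rose by 0.73 (adjusted p = 0.00198), with an adjusted p of 0.0656 without batch 3. Among the falls were HMCES, which shields abasic sites in DNA (−0.85, adjusted p = 0.000189), TMT1A (−0.80, adjusted p = 8.32e-06) and FAM167A (−0.67, adjusted p = 5.76e-05).

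The LPS arrays were also set directly against the CD40L arrays, in the same fit. Both stimuli share the control arrays, so the changes against control are given side by side and the test is that of LPS minus CD40L. In this test 52 probe sets (0.0952%) were higher and 164 (0.3%) lower after LPS than after CD40L. Of the probe sets called after LPS, 87 were also called in this direct test, and for 76 of them the change from control was smaller after LPS than after CD40L. CD58, for example, had a change of 0.83 after LPS and 1.62 after CD40L (direct difference −0.79, adjusted p = 0.000336), and NFKBIE had 0.49 and 0.83 (−0.33, adjusted p = 0.0172).

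The other 11 probe sets were further from control after LPS, and they were singled out after their values were seen. The rises among them were IFIT1, IFIT2, IFIT3, NFKBIZ, PMAIP1 and CREM, the last by a single probe set. IFIT3 was at 7.50, 7.45 and 7.56 after LPS and at 6.50, 6.76 and 6.60 after CD40L, close to its control levels, so that LPS and CD40L arrays did not overlap (direct difference 0.89, adjusted p = 1e-05). IFIT1 had changes of 0.47 after LPS and 0.02 after CD40L (0.44, adjusted p = 0.00264), and IFIT2 had 0.34 and −0.17 by its dimmer probe set (0.51, adjusted p = 0.00136).

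NFKBIZ was at 11.12, 11.06 and 11.17 after LPS and at 10.68, 10.74 and 10.61 after CD40L (0.44, adjusted p = 0.0283). PMAIP1, the death promoter NOXA, had changes of 0.26 and −0.08 (0.33, adjusted p = 0.0183). The falls of this kind were CYP26A1, an enzyme that degrades retinoic acid, with −0.43 after LPS and 0.21 after CD40L (−0.64, adjusted p = 0.000181), POU2AF1 with −0.34 and 0.04 (−0.38, adjusted p = 0.0189), and SOCS1, an inhibitor of JAK kinases, with −0.31 and 0.04 (−0.35, adjusted p = 0.0248). Against control, the calls of SOCS1, POU2AF1, NFKBIZ and, by that single probe set, CREM after LPS were lost without batch 3 (adjusted p = 0.246, 0.209, 0.202 and 0.111), as were those of IFIT1 (0.0607) and IFIT2 (0.0884, and up to 0.132 without the LPS array of batch 2). Over the 9 settings that left out a batch or an array, the calls of SOCS1 and PMAIP1 held in 3 and those of POU2AF1 and IFIT2 in 4. Those of PMAIP1 and CYP26A1 were lost without batch 1 (adjusted p = 0.349 and 0.0935). ID1 had −1.90 and −2.01, and the direct difference was 0.11 (SE 0.077, adjusted p = 0.999). Nor did HLA-DQB1 pass the direct test, with 0.72 after LPS and 0.99 after CD40L (adjusted p = 0.274). IKBKE had 0.72 after both (adjusted p = 0.999), ID3 −0.81 and −0.98 (adjusted p = 0.944) and RGS18 −0.85 and −0.92 (adjusted p = 0.999). These changes are therefore not given as particular to LPS.

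**Figure D5:**
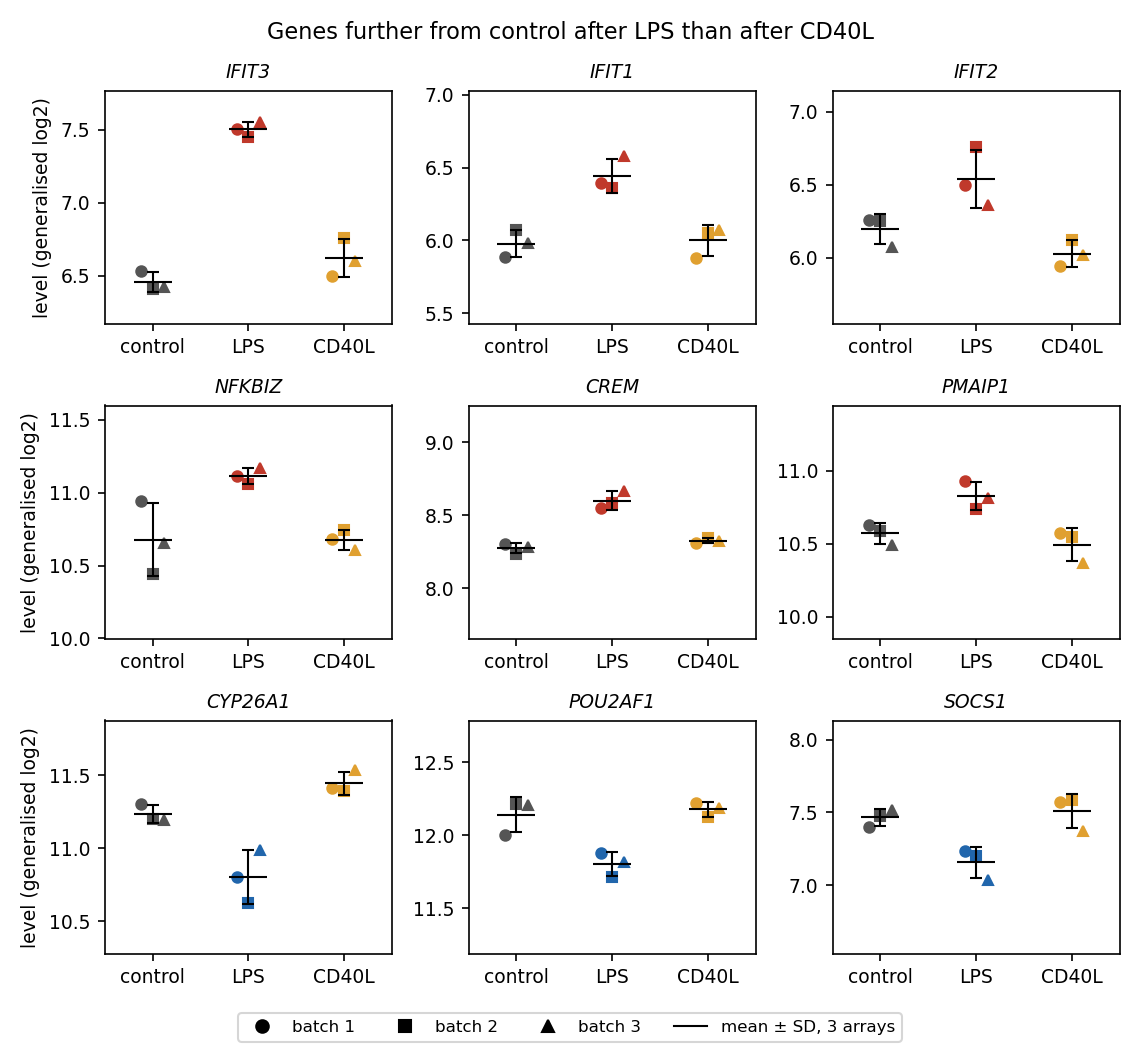
Levels (generalised log2, y axis, all panels to the same scale) of 9 genes in the 3 control, 3 LPS and 3 CD40L arrays, with symbols for the batches and means with SDs in black. The 3 IFIT genes, NFKBIZ, CREM and PMAIP1 are higher and CYP26A1, POU2AF1 and SOCS1 lower after LPS than in both other groups, and these genes were selected for this order.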

How the data were processed

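Intensities of HG-U133 Plus 2.0 arrays were background-corrected and normalised by variance stabilisation and summarised by median polish by the authors. The deposited generalised log2 values were used as given, with 62 AFFX controls removed from 54675 probe sets. The platform's annotation gave a single gene for 41097 probe sets and several genes for 1801. Probe sets with several genes or none were not named, and some genes are not analysed here. Groups came from the treatment labels. limma 3.58.1 (lmFit, eBayes) in R 4.3.3 was fitted over all 9 arrays with group and batch as terms (4 residual and 11.6 prior degrees of freedom), and was tested on simulated data. Batches pair the arrays because the sample names number them, and deviations of control and LPS arrays from their group means correlated at 0.442, −0.0401 and 0.232 in batches 1 to 3.

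The text names the top 15 genes in each direction, of each of 33 lists up to 6 called members, the LPS receptor and adaptors, the NF-κB subunits and inhibitors, the ID genes and B cell markers. Lists use the brightest probe set of a gene. The members, lists and tests were chosen with earlier results of these data known. Alternatives comprised a fit lacking the batch term, a random batch effect (statmod 1.5.0), a fit of the 6 arrays alone, quantile normalization or centring on the median, removal of dim probe sets, an intensity trend, omission of each batch or array, and the probe set of largest change. Upstream sequences are those of RefSeq (GRCh38.p14), and tables were made with pandas 2.3.3 in Python 3.11.15.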

Additional observations from a re-analysis of the deposited data

How the results depend on the processing

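The counts of called probe sets depended on the replicates and on the pairing by batch. Without the replicate block, 156 probe sets were higher and 166 lower after LPS, against 637 and 487 with it, and with the batch as a random effect there were 247 and 248. Quantile normalization gave 775 higher and 870 lower probe sets, so that the share of higher ones among the calls fell from 56.7% to 47.1%. Leaving out 1 batch or 1 array gave 147 to 856 higher and 115 to 722 lower probe sets. The lowest counts were found without batch 3, the most higher ones without its control array (856, with 339 lower) and the most lower ones without the control array of batch 2 (722, with 514 higher). For LPS minus CD40L, with 52 higher and 164 lower probe sets, the counts were 9 and 64 without the replicate block, 16 and 81 with the random effect and 89 and 183 after quantile normalization. They ran from 5 to 137 and from 29 to 349 with 1 batch or array left out, lowest without batch 3 and highest without the control array of batch 2. With the 6 arrays alone, median centring, dim probe sets left out or an intensity trend, the counts of LPS against control stayed within 1.5 times. Of 151 named calls 43 were kept under every alternative other than the removal of dim probe sets, which kept 142 of 148, and none changed sign. Only 69 were kept without the replicate block, 57 without batch 3 and 75 without batch 1, and the cause of these losses was not tested. Changes of dim genes are understated on this scale. By the probe set of largest change of each gene, 9 class I and 9 class II genes were higher, 12 hypoxia-inducible or glycolytic genes were lower, and 6 interferon-stimulated genes were higher and 7 lower.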

Other observations

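Genes of cell death, Wnt signalling and DNA repair were also measured. Of 33 genes of the BCL2 family and the caspases, 4 (12.1%) rose and 3 (9.09%) fell after LPS. Besides BCL2A1 and FAS the rises were the BH3 proteins BID, with all 3 of its probe sets higher (0.27, limma adjusted p = 0.0273), and PMAIP1 (0.26, adjusted p = 0.0354). APAF1, the core of the apoptosome, fell by 0.29 (adjusted p = 0.0311), and the caspases CASP6 and CASP9 fell by 0.28 (adjusted p = 0.0163) and 0.25 (adjusted p = 0.0321). BCL2 (0.02, adjusted p = 0.963) and MCL1 (−0.19, adjusted p = 0.108) did not pass the test. The 4 rises were all lost without batch 3. The 3 falls were lost without batch 1, without batch 3, without the control array of batch 3 and without any 1 of the LPS arrays.

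Of 44 Wnt and TCF/LEF genes 3 (6.82%) rose and 5 (11.4%) fell. The receptor LRP4 went from 7.92, 7.95 and 8.13 to 7.43, 7.54 and 7.53 with no overlap (−0.50, SE 0.058, adjusted p = 0.000243). It was called under every alternative, the removal of dim probe sets not counted. The ligand WNT5A rose by 0.31 (adjusted p = 0.0124) while WNT10A fell by 0.35 (adjusted p = 0.0201), and both calls were lost without batch 1 and without batch 3. Of 45 DNA repair genes 1 (2.22%) rose and 3 (6.67%) fell. In addition to NEIL2 and HMCES these were the checkpoint kinase ATM, with 3 of its 6 probe sets lower (−0.37, adjusted p = 0.0037), and XPC, a sensor of DNA lesions (−0.32, adjusted p = 0.00439). Of 23 targets of p53, 2 (8.7%) rose and 3 (13%) fell, TP53INP1 most, from 9.99, 9.60 and 9.51 to 9.14, 9.15 and 9.05 (−0.58, SE 0.084, adjusted p = 0.00128). Of the 3 probe sets of TP53INP1, 1 was lower. Of 37 genes of ribosome biogenesis, 3 (8.11%) rose by 0.24 to 0.30 and 0 fell. With single batches or arrays left out this count ran from 0, in 7 of 9 settings, to 4, and by the probe set of largest change it was 8.

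Of 27 interferon regulatory factors, STATs and their regulators 3 (11.1%) rose and 2 (7.41%) fell, of 28 AP-1, ATF and CREB factors 2 (7.14%) rose and 1 (3.57%) fell, and of 28 MAP kinase pathway genes 2 (7.14%) rose and 1 (3.57%) fell. Of 38 genes of G-protein coupled signalling 1 (2.63%) rose and 4 (10.5%) fell, and of 44 genes of the actin cytoskeleton 1 rose and 1 fell (2.27% each). Over all 19775 genes 1.62% rose and 1.48% fell. With batch 3 left out, 1 of the first list rose and 0 fell, and 0 MAP kinase pathway genes were called, whose fall was lost in all 9 settings that left out a batch or array. The G-protein list had 2 to 4 falls, the AP-1 list 2 rises and 0 to 3 falls, and the actin list 0 to 2 rises and 0 to 1 falls.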
